A study of Mus musculus with 22 samples.

Results

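Resident alveolar macrophages and Ly6Chi monocytes of the mouse lung were compared at baseline. The comparison took in all 4 control samples of SigF+CD11b- alveolar macrophages and all 4 control samples of Ly6Chi monocytes, 8 of the 22 samples in the series, on the gene identifiers counted for both cell types and after joint normalization. Alveolar macrophages live in the air spaces, where they take up surfactant, inhaled particles and dying cells, and in steady state they largely maintain themselves by local division. Their identity depends on GM-CSF from the alveolar epithelium and on the lipid-sensing factor PPAR-gamma. Ly6Chi monocytes are made in the bone marrow, reach tissues through the chemokine receptor CCR2, and can become macrophages or antigen-presenting cells.

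All 8 samples came from C57BL/6 mice with the genotype SP-CI73T mutant, a mutation of surfactant protein C, which is made by alveolar type 2 cells, and all were labelled control and untreated. The controls therefore carried the mutant allele, which before tamoxifen is expressed at a reduced level, and are not wild type. The study's methods pool, as controls, mice without the Flp-O recombinase given tamoxifen and mice with it given oil, its results call the monocyte controls oil treated, and the labels do not say which of these a sample was. Adult mice were used. Lungs were lavaged, perfused and digested with collagenase D, and the methods describe staining of both lavage and tissue cells. The study's text names digested tissue as the source of the sorted monocytes. It does not say whether the macrophages were sorted from lavage, digest or both, or whether mice were pooled. Where nothing says that samples came from separate mice, p-values measure only the spread between samples.

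Each macrophage library held 14437070 to 17074863 counts on genes and each monocyte library 22135815 to 28789639. A floor of 3 counts, scaled to a library's total counts, was 0.176 to 0.208 CPM in macrophages and 0.104 to 0.136 CPM in monocytes. This floor covers counting error only. The CPM of the genes compared are instead counts scaled to the normalized library size. On that scale, 3 counts of *Ifitm6* in macrophage sample 1 were 0.159 CPM. *Xist* was counted in all 8 libraries, and Y-linked genes had at most 3 counts in any of them. The cell types were counted in separate tables, 55421 identifiers for monocytes and 31134 for macrophages with 31116 in common, and the macrophage table listed no identifier that was at 0 in all its samples. Whatever differed between the tables cannot be told apart from cell type.

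Of the 15563 genes tested with edgeR's quasi-likelihood test, 5510 (35.4%) were called higher in alveolar macrophages and 4722 (30.3%) higher in monocytes, at a Benjamini-Hochberg adjusted p under 0.05 and a fold change above 1.5. Together these were 65.7% of the genes tested, and a call by itself therefore says little about any single gene. Counts of list members called are to be read beside the 35.4% and 30.3% over all genes tested. With library size scaling these shares were 45.2% and 19.1%. Above 4-fold, 3006 genes (19.3%) were higher in macrophages and 1561 (10%) in monocytes. The groups did not overlap, with macrophages higher, at 36.4% of genes, and with monocytes higher at 30.5%. The median log2 fold change over all genes tested was 0.06. With library size scaling alone, the split of calls moved from 53.9% to 70.3% toward macrophages (7031 against 2967 genes), and the median over all genes rose to 0.53. Among genes sharing no exonic base with another gene, a restriction chosen after the data were seen, 2987 of 9322 were higher in macrophages and 2818 in monocytes.

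On the first principal component of the 500 most variable genes, which held 96.87% of the variance, macrophages scored from 77.15 to 81.5 and monocytes from -82.21 to -74.45. The second component held 1.224%. When all genes tested were used, the first component held 87.33% and the second 4.659%, and on the second, monocyte samples 1 and 2 scored 51.99 and 32.55 while samples 3 and 4 scored -36.7 and -57.53.

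A few features of the libraries moved with cell type. Transcripts of the alveolar macrophage identity list were present in the monocyte libraries at unequal levels. Over the 23 alveolar macrophage identity genes that were more than 4-fold higher in macrophages, the median level in a monocyte library, as a percentage of the macrophage mean, was 1.82% in sample 1 and 3.52% in sample 2, but 14.8% in sample 3 and 8.21% in sample 4. In bulk samples, the number of cells of a type and the RNA per cell cannot be told apart. Monocyte samples 3 and 4 stood apart, and values without them are given beside the results they moved most. In the other direction, the 20 classical monocyte genes more than 4-fold higher in monocytes had a median of 0.669% to 0.993% of the monocyte mean in the macrophage libraries. Both sets of genes were chosen by their fold change in these same samples. Low percentages in the other cell type follow from that choice and do not measure purity.

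Strand overlap and base composition moved with cell type too. Genes annotated as antisense took 1.353% to 1.39% of the counts in macrophages and 0.139% to 0.175% in monocytes. Of the 872 antisense genes tested, 692 (79.4%) were called higher in macrophages and 90 (10.3%) in monocytes. Their median log2 fold change (macrophages minus monocytes throughout) was 4.27. Among protein-coding genes with no exonic base shared with a gene on the other strand, the median log2 fold change was -0.12, and it was 2.85 among the 144 genes that shared more than 50% of their exonic bases in this way. Overlap on the same strand, among genes with none on the other, showed no shift toward macrophages. The median was -0.12 without it, -0.42 at 10 to 50% and -0.4 among the 66 genes above 50%. Among protein-coding genes without any overlap, 69.6% were called higher in macrophages when some 200-base window of the longest transcript exceeded 80% GC, against 22.2% when the richest window lay between 60 and 70%. Without strand information, reads from a gene and its partner on the other strand cannot be told apart. The share of these features in any single result was not tested beyond the values given.

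**Figure D1:**
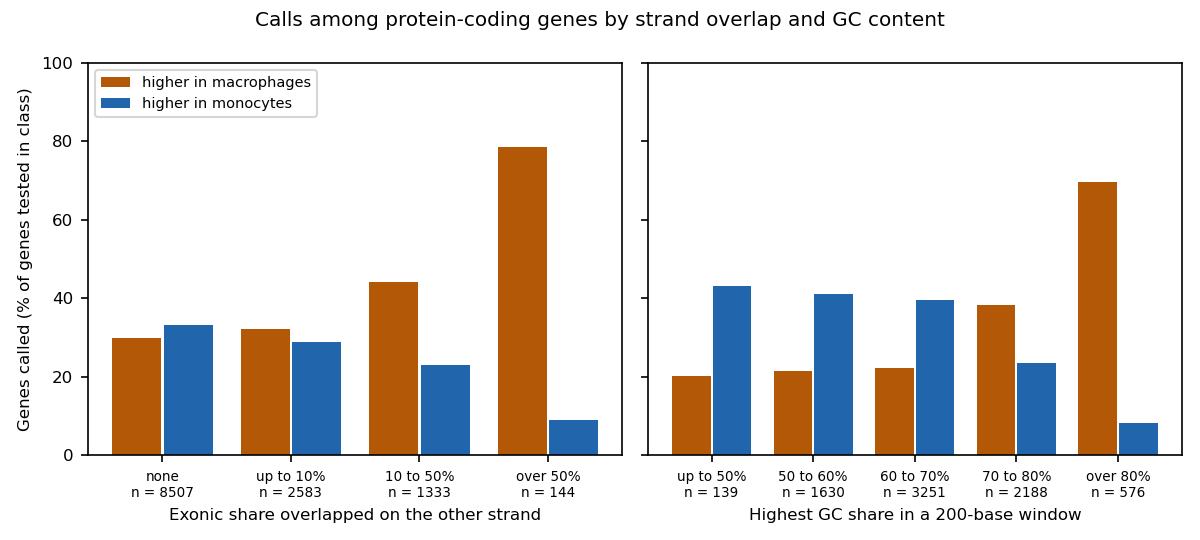
Bars show the percentage of tested protein-coding genes called higher in alveolar macrophages (brown) or in Ly6Chi monocytes (blue), by the exonic share overlapped by genes on the other strand (left) and, among genes without any overlap, by the highest GC share in a 200-base window (right), with the number of genes tested under each class. Calls toward macrophages rise from 29.8% to 78.5% across the overlap classes and reach 69.6% in the class over 80% GC.

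**Figure D2:**
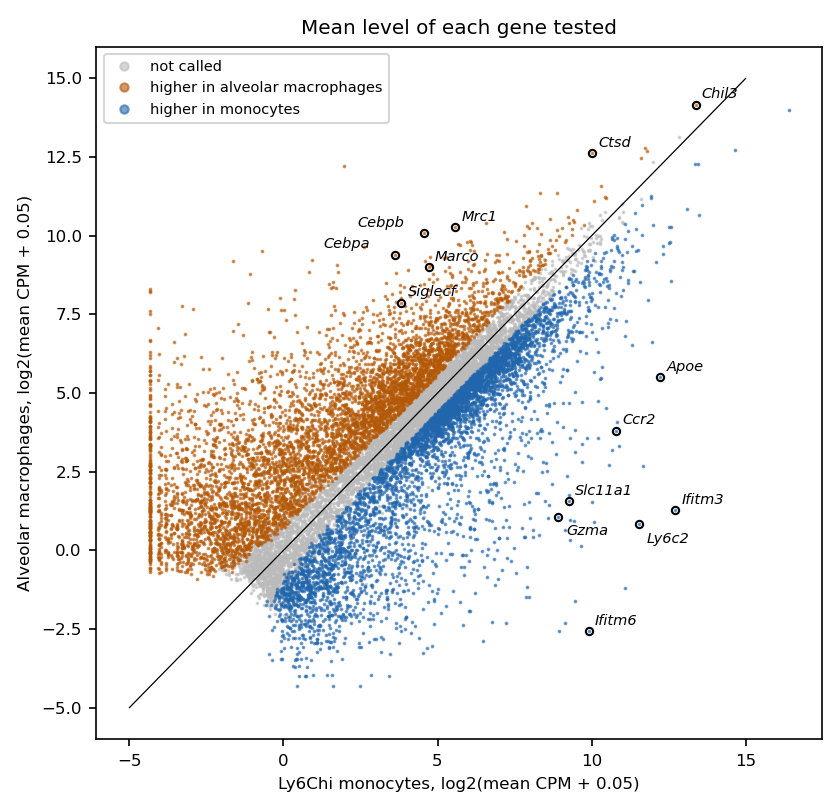
Each point is a gene tested, with its mean level in 4 monocyte samples on the horizontal axis and in 4 macrophage samples on the vertical axis, both as log2(CPM + 0.05), colored by its call. The points at the left edge are genes with no count in any monocyte sample, and *Ifitm6*, *Ifitm3* and *Ly6c2* lie farthest to the lower right among the labelled genes.

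The most abundant transcripts per exonic length (RPKM, mean ± SD of 4 samples) overlapped in part. *Lyz2*, which encodes lysozyme, led both lists, at 12336 ± 691 RPKM in macrophages and 66093 ± 13841 RPKM in monocytes, and *Tmsb4x*, *Chil3*, *Ftl1* and *Actb* were also among the 10 highest in both. The remaining 5 in macrophages were *Rplp1*, *Ccl6*, *Ctsd*, *Ear2* and *Eef1a1*. *Ctsd*, the lysosomal protease cathepsin D, reached 2693 ± 188 RPKM there and 437 ± 228 RPKM in monocytes. In monocytes the remaining 5 were *Ifitm3*, *Tyrobp*, *B2m*, *Gpx1* and *Ifi27l2a*. *Ifitm3*, an interferon-inducible restriction factor at membranes, reached 9944 ± 621 RPKM in monocytes and 3.52 ± 1.32 RPKM in macrophages, so that the second most abundant monocyte transcript was close to absent from macrophages. Reads of close paralogs, such as *Lyz2* and *Lyz1*, *Ly6c2* and *Ly6c1*, *Ear2* and *Ear1* or *Ifit3* and *Ifit3b*, could have been split or dropped in counting.

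Markers of the sort are a check of the labels, not a finding. Of 12 sort and lineage markers, 3 were called higher in macrophages and 8 in monocytes. *Siglecf*, which encodes the macrophage gate's surface lectin, measured 269, 179.9, 234 and 256 CPM in macrophages and 4.11, 3.75, 29.2 and 19.7 CPM in monocytes. *Ly6c2* measured 1.17, 1.95, 2.57 and 1.18 CPM in macrophages and 3460.1, 2871, 2569 and 2932 CPM in monocytes, and *Itgam*, which encodes CD11b and shares 3450 exonic bases with *Gm49368* on the same strand, 1.8, 2.07, 1.01 and 0.563 and 403, 312, 239.9 and 303 CPM. None of these overlapped between the cell types, and the higher *Siglecf* values in monocytes were those of samples 3 and 4 (5.86 in place of 4.04 on the log2 scale without them). *Fcgr1*, which encodes CD64, was higher in monocytes, for which the study names a CD64- gate, with 69.7, 52.0, 74.8 and 58.1 CPM in macrophages and 319, 323, 320.2 and 286 CPM in monocytes (log2 fold change -2.29, edgeR adjusted p = 6.31e-07). The pan-macrophage marker *Adgre1* (F4/80) was not called, with a log2 fold change of -0.16 (edgeR adjusted p = 0.466), and its sign turned with library size scaling (0.32). The myeloid growth factor receptor *Csf1r* was higher in monocytes, at 247 ± 13.6 against 3653 ± 1107 CPM (SD, n = 4 each).

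Of 30 alveolar macrophage identity genes, 29 were called higher in macrophages and none in monocytes, with a median log2 fold change of 3.66 against 0.06 over all genes tested. *Marco* (ENSMUSG00000026390, chromosome 1, 120474538 to 120505024), a scavenger receptor for bacteria and particles, measured 419, 539, 652 and 446 CPM in macrophages and 3.41, 8.63, 64.0 and 28.4 CPM in monocytes. Every macrophage sample exceeded every monocyte sample, and monocyte samples 3 and 4 were higher than samples 1 and 2. The log2 fold change of 4.30 (SE 0.78, edgeR adjusted p = 0.000687) became 6.41 without these 2 samples. The mannose receptor *Mrc1* (ENSMUSG00000026712, chromosome 2, 14229392 to 14332057) had 1119, 1162, 1237 and 1428 CPM in macrophages and 38.9, 37.0, 59.4 and 53.8 CPM in monocytes, a log2 fold change of 4.71 (SE 0.20, edgeR adjusted p = 7.66e-08). *Pparg* (ENSMUSG00000000440, chromosome 6, 115360951 to 115490399), the nuclear receptor on which these cells depend, stood at 186, 140.2, 191 and 226 CPM in macrophages and 16.7, 14.5, 28.5 and 49.3 CPM in monocytes, again without overlap, with a log2 fold change of 2.77 (SE 0.37, edgeR adjusted p = 0.000101). Its transcript is GC rich, and with an offset for GC content the log2 fold change was 1.36 and still called. Without monocyte samples 3 and 4 it was 3.53.

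Other members spanned a wide range. *Trim29* (log2 fold change 5.09), *Krt79* (4.56), *Car4* (3.71), the sterol exporter *Abcg1* (3.84), lipoprotein lipase *Lpl* (3.09) and the tetraspanin *Cd9* (3.02) were called higher in macrophages. Without monocyte samples 3 and 4, *Trim29* stood at 6.91, *Krt79* at 7.41, *Car4* at 4.55 and *Cd9* at 4.36. *Fabp4*, a fatty acid binding protein often used as a marker of these cells, was called by a narrow margin, at 1.33 (edgeR adjusted p = 0.0298). In monocytes it measured 18.4, 13.6, 44.0 and 82.0 CPM, highest in samples 3 and 4, and without these samples its log2 fold change was 2.59. Its call was lost when any of macrophage samples 1, 2 and 4 or monocyte samples 1 and 3 was left out (1.08 to 1.37). *Chil3*, which encodes the chitinase-like protein Ym1, was abundant in both cell types, at 19490.3, 18244, 19516 and 16393 CPM in macrophages and 15717, 9344, 10399 and 7109 CPM in monocytes. Its log2 fold change of 0.79 (edgeR adjusted p = 0.00678) dropped to 0.51 without monocyte samples 3 and 4, under the fold threshold. The chemokine *Ccl6* was the member not called, with overlapping groups and a log2 fold change of 0.35 (edgeR adjusted p = 0.129).

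**Figure D3:**
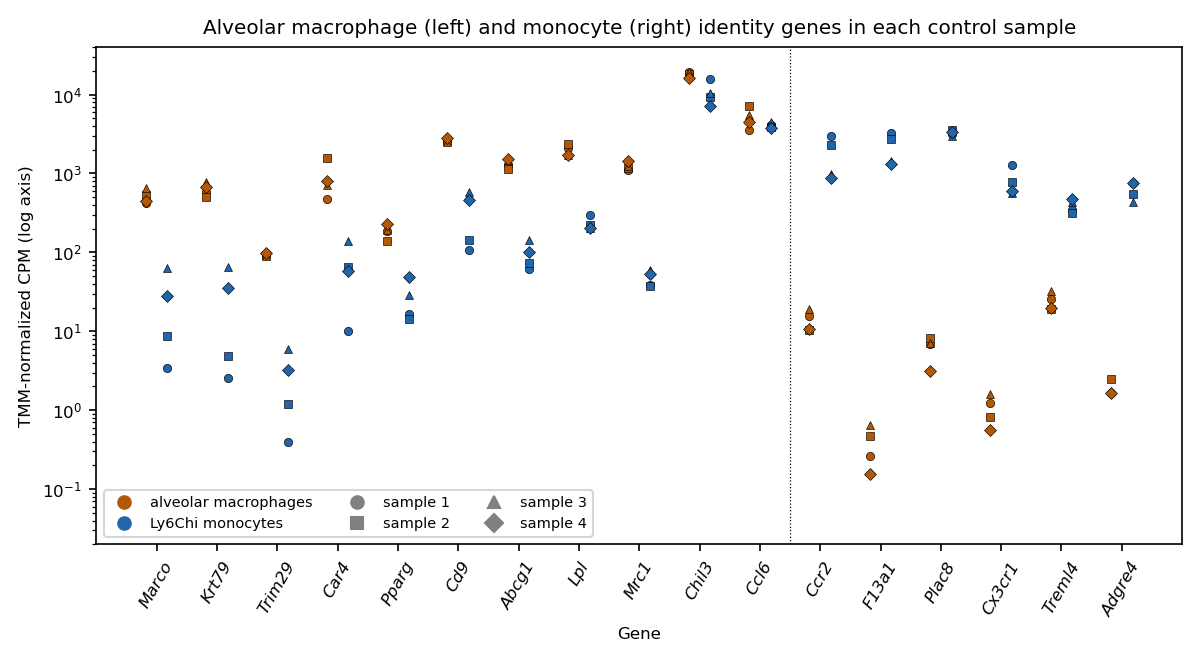
CPM on a log axis for 11 genes of the alveolar macrophage list (left of the dotted line) and 6 genes of the monocyte lists (right) in each of 4 macrophage (brown) and 4 monocyte (blue) samples, with a symbol for each sample number. Macrophage samples lie above monocyte samples for the genes on the left except *Ccl6*, where they overlap, and monocyte samples 3 and 4 lie above samples 1 and 2 for *Marco*, *Krt79*, *Trim29* and *Cd9*.

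Of 25 classical monocyte genes tested, 22 were called higher in monocytes and 2 in macrophages, with a median log2 fold change of -6.27. *Ccr2* (ENSMUSG00000049103, chromosome 9, 124101950 to 124113557), the receptor for CCL2 that brings these cells out of the marrow, measured 2999, 2280.2, 993 and 886 CPM in monocytes and 15.7, 10.2, 19.3 and 10.5 CPM in macrophages, a log2 fold change of -7 (SE 0.51, edgeR adjusted p = 1.55e-06). Monocyte samples 3 and 4 had the lower *Ccr2* values, and without them the log2 fold change was -7.60. *Ifitm6* (ENSMUSG00000059108, chromosome 7, 141015699 to 141017924), a monocyte member of the interferon-induced transmembrane family, had the largest difference of the genes named by the rule, at 1225, 973, 812 and 832 CPM in monocytes and 0.159, 0.0592, 0.151 and 0.102 CPM in macrophages, the latter near the floor. *F13a1*, coagulation factor XIII subunit A, had 3293, 2709.6, 1442 and 1326 CPM in monocytes and 0.265, 0.474, 0.656 and 0.154 CPM in macrophages, with a log2 fold change of -12.45 (edgeR adjusted p = 9.57e-08). *Plac8* followed at -8.99 (edgeR adjusted p = 3.19e-08).

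A few members of this list went the other way or were not called. *Fpr1*, the formyl peptide receptor, measured 285, 214, 283 and 272 CPM in macrophages and 17.9, 13.7, 57.5 and 47.2 CPM in monocytes, and the endotoxin receptor *Tlr4* 91.0, 109.5, 78.6 and 82.1 and 55.9, 52.6, 30.3 and 37.6 CPM. Both were higher in macrophages in every sample, with log2 fold changes of 2.95 (edgeR adjusted p = 0.000175), 4.02 without monocyte samples 3 and 4, and 1.03 (edgeR adjusted p = 0.00153). Fibronectin, *Fn1*, was not called, with 999, 1828, 1206 and 1395 CPM in macrophages and 3588, 2379, 1402 and 919 CPM in monocytes. Without monocyte samples 3 and 4 it was called higher in monocytes, with a log2 fold change of -1.17 (edgeR adjusted p = 0.00297), as without sample 4 alone (-0.9).

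Genes associated with patrolling, Ly6Clo monocytes were also higher in these monocytes. Of 12 tested, 10 were called higher in monocytes and none in macrophages, with a median of -3.66. *Cx3cr1*, the fractalkine receptor, measured 1272, 784, 563 and 601 CPM in monocytes and 1.22, 0.8289, 1.61 and 0.563 CPM in macrophages, without overlap (log2 fold change -9.56, edgeR adjusted p = 1.26e-07). *Adgre4* had a log2 fold change of -8.38 (edgeR adjusted p = 2.04e-08), *Treml4* -4.02 (edgeR adjusted p = 3.43e-07) and *Nr4a1*, the factor that Ly6Clo monocytes require, -3.30 (edgeR adjusted p = 5.74e-07). The scavenger receptor *Cd36*, which belongs to the same list, was not called, at 0.61 (edgeR adjusted p = 0.169). It was called higher in macrophages with the replicate number as a block, at 0.72 (edgeR adjusted p = 0.0247), without monocyte samples 3 and 4, at 1.22, without sample 4 alone, at 1.06, and with library size scaling, at 1.05.

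Among 28 identity transcription factors, 13 were called higher in macrophages, 10 in monocytes and 5 were not called, with a median of 0.04. All genes tested had shares of 35.4% and 30.3% and a median of 0.06. With an offset for GC content the counts were 12 and 13 and the median -0.33. *Spi1*, which encodes PU.1, the master regulator of myeloid cells, was not called, with 461, 487, 486 and 475 CPM in macrophages and 308, 684, 916 and 779 CPM in monocytes. The groups overlapped through monocyte sample 1, and without that sample *Spi1* was called higher in monocytes, at -0.75. *Tfec*, of the MITF family, measured 134, 159, 139 and 149 CPM in macrophages and 5.77, 12.4, 10.9 and 8.44 CPM in monocytes (log2 fold change 3.95, edgeR adjusted p = 5.26e-07), and *Egr2* was higher in macrophages by 3.09 (edgeR adjusted p = 8.51e-07). Neither gene shares exonic bases with another.

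*Cebpa* and *Cebpb*, leucine zipper factors of the myeloid lineage, were among the largest differences. *Cebpb* (ENSMUSG00000056501, chromosome 2, 167688915 to 167690418) measured 889.5, 1066, 1104 and 1312 CPM in macrophages and 16.4, 16.5, 24.7 and 37.6 CPM in monocytes, a log2 fold change of 5.52 (SE 0.31, edgeR adjusted p = 3.72e-07), and *Cebpa* 653, 615, 617 and 813 and 5.29, 7.78, 18.9 and 16.6 CPM, a log2 fold change of 5.79 (SE 0.42, edgeR adjusted p = 1.64e-06). No monocyte sample came near the lowest macrophage sample for either gene. *Cebpb* shares 312 exonic bases with *Tmem189* on the other strand and *Cebpa* 51 with *Gm45091*. *Bhlhe41*, a repressor tied to self-renewal of alveolar macrophages, had a log2 fold change of 6.51 (edgeR adjusted p = 2.23e-07) and shares 1280 exonic bases with *Gm43909* on the other strand. The partner of PPAR-gamma, *Rxra*, had 3.07 (edgeR adjusted p = 3.68e-06). All 4 of these transcripts have a window of at least 79.5% GC, and with an offset for GC content their log2 fold changes were 4.35 for *Cebpa*, 4.06 for *Cebpb*, 5.34 for *Bhlhe41* and 1.58 for *Rxra*, each still called. *Klf4* was called higher in macrophages at 1.08 (edgeR adjusted p = 0.00987), and with that offset its sign turned, to -0.35. In monocytes, *Irf8*, a factor of monocyte and dendritic cell development, was higher at -2.38 (edgeR adjusted p = 1.42e-06) and *Runx3* at -4.38 (edgeR adjusted p = 2.17e-05).

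Interferon-stimulated genes were higher in monocytes almost without exception. They are switched on by the ISGF3 and IRF factors, and some are held at a tonic level without infection. Of 28 tested, 27 were called higher in monocytes and none in macrophages, with a median log2 fold change of -5.06. Their summed level was 349 to 424 CPM in the macrophage samples and 10787 to 13283 CPM in the monocyte samples. The median of the 28 gene means was 3.04 CPM in macrophages and 140 CPM in monocytes. Under each of the 4 other scalings and with DESeq2, 27 members were called higher in monocytes and none in macrophages.

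*Ifitm3* (ENSMUSG00000025492, chromosome 7, 141009586 to 141010770) measured 7083, 7105, 6525 and 6255 CPM in monocytes and 1.7, 1.66, 3.53 and 2.66 CPM in macrophages, a log2 fold change of -11.45 (SE 0.31, edgeR adjusted p = 5.66e-09). *Irf7* (ENSMUSG00000025498, chromosome 7, 141262706 to 141266481), which amplifies interferon transcription, had 934, 1013, 783 and 596 CPM in monocytes and 4.29, 10.01, 8.02 and 5.63 CPM in macrophages, with a log2 fold change of -6.90 (edgeR adjusted p = 1.47e-07). Both were separated by far more than the spread within a cell type. *Ifit3*, which binds foreign RNA in a complex with its relatives, measured 195, 187, 97.0 and 123 and 0.954, 2.78, 2.52 and 1.28 CPM in monocytes and macrophages (log2 fold change -6.32, edgeR adjusted p = 7.79e-07), *Isg15*, a ubiquitin-like modifier, 107, 125, 98.5 and 95.0 and 2.65, 4.68, 4.54 and 3.28 CPM (-4.81, edgeR adjusted p = 1.3e-07), and the antiviral enzyme *Rsad2* 127, 104, 64.5 and 113 and 1.33, 2.19, 2.57 and 1.48 CPM (-5.75, edgeR adjusted p = 2.72e-07). *Ifih1*, the RNA sensor MDA5, was the member not called, at -0.58 (edgeR adjusted p = 0.0107), just under the fold threshold. It passed when macrophage sample 4 or monocyte sample 2 or 3 was left out (-0.72 to -0.6).

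**Figure D4:**
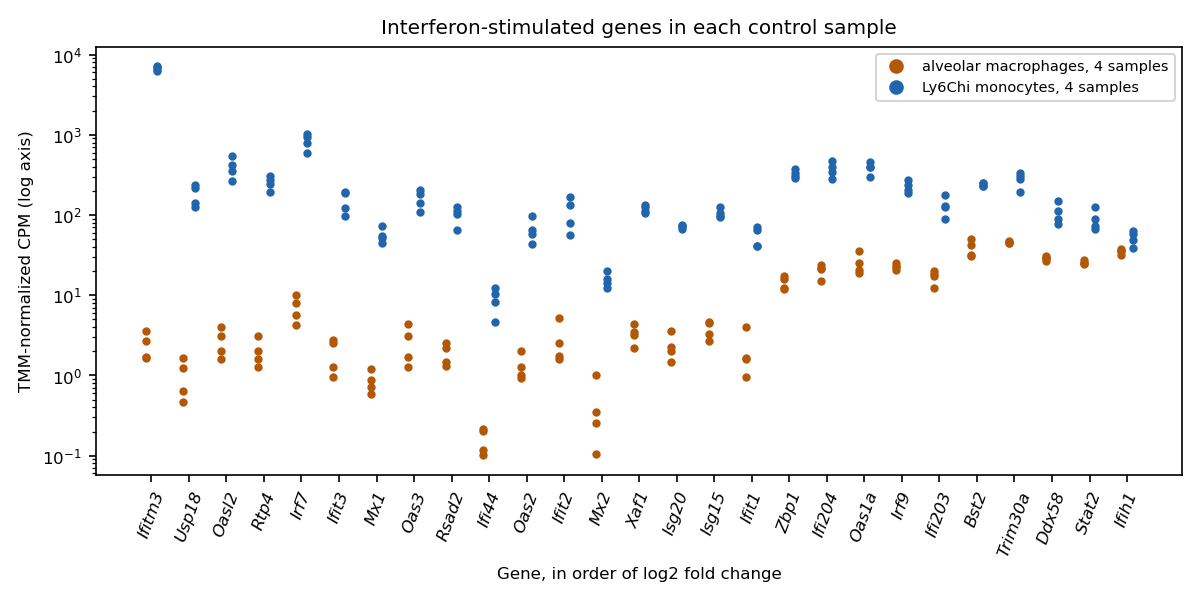
CPM on a log axis of 27 of the 28 interferon-stimulated genes tested in 4 macrophage samples (brown) and 4 monocyte samples (blue), in order of log2 fold change. The summed level of all 28 lies between 349 and 424 CPM in macrophages and between 10787 and 13283 CPM in monocytes, and the groups come closest at *Ifih1* on the right.

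The promoters of 3 of these genes are shown because each holds the letters of the interferon element. The 200 bases before the transcription start are from RefSeq (GRCm38.p6). Capitals mark matches on either strand to the element searched for, GAAA, any 2 bases and GAAA. They lie at chr19:34583329-34583528 on the forward strand for *Ifit3*, chr4:156200819-156201018 on the reverse strand for *Isg15* and chr12:26456453-26456652 on the reverse strand for *Rsad2*, written 5′ to 3′ in the direction of the gene.
Ifit3: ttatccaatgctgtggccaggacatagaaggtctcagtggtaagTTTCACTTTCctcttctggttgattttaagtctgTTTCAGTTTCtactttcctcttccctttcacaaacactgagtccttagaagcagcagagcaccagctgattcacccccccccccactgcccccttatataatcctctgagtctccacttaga
Isg15: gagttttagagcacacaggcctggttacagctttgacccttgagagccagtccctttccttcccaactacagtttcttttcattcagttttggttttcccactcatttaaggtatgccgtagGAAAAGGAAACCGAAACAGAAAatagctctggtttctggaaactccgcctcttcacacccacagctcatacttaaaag
Rsad2: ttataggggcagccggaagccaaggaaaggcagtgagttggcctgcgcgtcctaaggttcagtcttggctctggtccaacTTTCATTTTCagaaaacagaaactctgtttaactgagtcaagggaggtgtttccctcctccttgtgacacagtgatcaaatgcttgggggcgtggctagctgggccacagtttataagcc

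*Ifit3* held 2 matches, the farther starting 156 bases before the start and the nearer 122, *Isg15* held 3 overlapping matches, the farthest starting 78 and the nearest 66 bases before the start, and *Rsad2* held 1 at 120 bases. Of the 20 interferon-stimulated genes with a promoter in RefSeq's table (250 bases before to 50 after the start), 13 (65%) held the element, against 412 of 10586 (3.89%) over all tested genes with a promoter. Among genes above 4-fold, 82 of 920 promoters (8.91%) held it when the gene was higher in monocytes and 49 of 1664 (2.94%) when higher in macrophages. The PU.1 core GAGGAA was in 38.5% of the promoters of genes higher in monocytes and 32.5% of those higher in macrophages, against 31.1% of all. The C/EBP letters TTGCNNAA were in 12.6% and 11.2% against 10.4%, and the E-box CACGTG in 8.59% and 10.6% against 11.4%. The KLF box CACCC was in 71.6% and 69.7% against 66.6%, and the consensus direct repeat of PPAR/RXR was in 4 of the 10586 promoters, too few to compare. These shares describe letters in a window and not binding.

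MHC class II genes leaned toward monocytes. Of 14 antigen presentation genes, 10 were called higher in monocytes, none in macrophages, with a median of -1.30. *H2-Ab1*, a class II beta chain, measured 1889.8, 3770.4, 2584 and 2281 CPM in monocytes and 214, 630.3, 802 and 244 CPM in macrophages, and the invariant chain *Cd74* 4907, 7186, 5189 and 5968 and 503, 1719, 2133 and 619.5 CPM. The macrophage samples fell apart within themselves, samples 2 and 3 lying at least 2-fold above samples 1 and 4 for both genes, and still below every monocyte sample. The class II transactivator *Ciita* had a log2 fold change of -1.75 (edgeR adjusted p = 0.00275). Of the costimulatory molecules, *Cd40* (-5.26) and *Cd86* (-3.38) were higher in monocytes, and *Cd80* was not called.

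Pattern recognition receptors were split. Of 24 Toll-like, NOD and C-type lectin receptor genes, 15 were called higher in monocytes and 7 in macrophages, the latter falling to 3 without monocyte samples 3 and 4. The lectin *Clec4a1* was the member with the largest difference, at 219.6, 204, 186 and 249 CPM in monocytes and 1.54, 1.54, 1.82 and 1.48 CPM in macrophages (log2 fold change -7.07, edgeR adjusted p = 3.71e-09). The endotoxin co-receptor *Cd14* was higher in monocytes, at -1.76 (edgeR adjusted p = 4.26e-05). *Clec4n*, which encodes Dectin-2 for fungal mannans, was higher in macrophages by 2.50 (edgeR adjusted p = 5.04e-05), and *Tlr2* by 0.81 (edgeR adjusted p = 0.0151) with overlapping groups and 0.38, under the fold threshold, without monocyte samples 3 and 4.

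Of 19 complement and Fc receptor genes, 12 were called higher in monocytes and 3 in macrophages, and with library size scaling 11 and 6. The signaling chain *Fcer1g* measured 3023, 2914, 3037 and 3285 CPM in monocytes and 358, 375, 377 and 362 CPM in macrophages (log2 fold change -3.06, edgeR adjusted p = 1.46e-08). *C1qb*, a subunit of C1q, measured 19.1, 34.9, 72.4 and 36.9 CPM in monocytes and 0.424, 1.01, 2.67 and 0.358 CPM in macrophages. It was called higher in monocytes at -5.18, and stood at -4.61 without monocyte samples 3 and 4. The neonatal Fc receptor *Fcgrt*, which recycles IgG, was higher in macrophages at 1.46 (edgeR adjusted p = 3.46e-05).

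Genes of GM-CSF signaling and surfactant lipid handling were higher in macrophages at 13 of 22, and in monocytes at 6, with a median of 0.95, and with library size scaling at 14 and 2. The receptor chains differed among themselves. *Csf2ra*, the specific alpha chain, measured 233, 289, 225 and 255 CPM in macrophages and 65.0, 135, 251 and 362 CPM in monocytes and was not called, though without monocyte samples 3 and 4 it was, at 1.30 (edgeR adjusted p = 0.002). *Csf2rb*, the shared beta chain, was not called (0.37, edgeR adjusted p = 0.0507) but passed with library size scaling (0.85). Its close paralog *Csf2rb2*, whose reads could have been split with it, was higher in macrophages by 1.85 (edgeR adjusted p = 5.13e-06).

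Downstream of the receptor, the phospholipase *Pla2g15*, which degrades surfactant phospholipid in lysosomes, measured 568, 581, 650.2 and 617 CPM in macrophages and 137, 133, 137 and 77.8 CPM in monocytes (log2 fold change 2.32, edgeR adjusted p = 3.25e-06). The cholesterol transporters *Npc1* (2.57, edgeR adjusted p = 3.9e-05) and *Abca1* (1.75, edgeR adjusted p = 1.81e-05) were higher in macrophages too, *Npc1* by 3.22 without monocyte samples 3 and 4. *Apoe* (ENSMUSG00000002985, chromosome 7, 19696109 to 19699188), which carries cholesterol out of cells, went strongly the other way, at 2488, 5678, 7207 and 3776 CPM in monocytes and 39.2, 44.5, 61.3 and 36.1 CPM in macrophages. No sample overlapped, and the log2 fold change of -6.72 (SE 0.39, edgeR adjusted p = 4.07e-07) was the largest of the list. Of 24 genes of fatty acid oxidation and lipid droplets, 10 were higher in macrophages and 3 in monocytes (median 0.52). The droplet protein *Cidec* had a log2 fold change of 4.02 (edgeR adjusted p = 0.00169), with monocyte values of 3.54, 3.41, 53.8 and 24.9 CPM, and 6.61 without monocyte samples 3 and 4. Library size scaling raised the list's macrophage count to 18, while the share over all genes tested rose from 35.4% to 45.2%.

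Of 25 sterol and fatty acid synthesis genes, 13 were higher in macrophages and 3 in monocytes (median 0.63), and with library size scaling 18 and 1. Fatty acid synthase, *Fasn*, was called higher in macrophages at 1.41 (edgeR adjusted p = 0.000181), and with an offset for GC content its sign turned, to -0.14.

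Glycolysis genes and the nuclear genes of oxidative phosphorylation both leaned toward monocytes, while mitochondrially encoded genes took a larger share of counts in macrophages. Of 21 glycolysis genes 12 were higher in monocytes and 1, *Aldoa* (0.59), in macrophages, with a median of -0.78. The *Aldoa* call was lost without macrophage sample 3, monocyte sample 1 or monocyte sample 4 (0.45 to 0.58). *Eno1*, enolase, measured 2203, 2488, 2249 and 1393 CPM in monocytes and 426, 578, 518 and 515 CPM in macrophages (log2 fold change -2.03, edgeR adjusted p = 7.21e-06). *Gapdh* was not called, at 0.41 (edgeR adjusted p = 0.0058), and was called higher in macrophages with library size scaling, at 0.89. Of 31 nuclear subunits of the respiratory chain and ATP synthase, 20 were higher in monocytes and none in macrophages, with a median of -0.89. For comparison, 30.3% and 35.4% of all genes tested were called in these directions. The complex I subunit *Ndufa1* measured 211, 206, 204 and 225 CPM in monocytes and 32.0, 36.5, 33.5 and 28.9 CPM in macrophages (log2 fold change -2.69, edgeR adjusted p = 1.14e-07). With library size scaling, the counts toward monocytes were 7 for glycolysis and 13 for oxidative phosphorylation. Mitochondrially encoded genes took 1.76% to 2.05% of counts in macrophages and 0.969% to 1.41% in monocytes. These shares include mitochondrial ribosomal RNA, which went the other way, at 0.116% to 0.154% in macrophages and 0.46% to 0.688% in monocytes.

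Lysosomal genes divided almost evenly, 11 of 32 higher in macrophages and 12 in monocytes, beside 35.4% and 30.3% of all genes tested. Their median of -0.08 became 0.41 with library size scaling. *Ctsd*, which shares 808 exonic bases with *Gm49369* on the same strand, measured 5757, 6820.3, 6463 and 6282 CPM in macrophages and 634, 865, 1819 and 787 CPM in monocytes (log2 fold change 2.62, edgeR adjusted p = 3.48e-05). *Lamp1*, a membrane glycoprotein of lysosomes, was higher in macrophages by 2.24 (edgeR adjusted p = 7.65e-05), and by 0.79 with the GC offset. *Psap*, the precursor of the saposins, was higher in monocytes, at -1.08 (edgeR adjusted p = 0.000129), and the protease *Ctsb* at -1.65 (edgeR adjusted p = 9.22e-07).

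In iron handling, *Slc11a1* (ENSMUSG00000026177, chromosome 1, 74375195 to 74386062), the phagosomal metal transporter NRAMP1, measured 609, 622, 616 and 609 CPM in monocytes and 2.6, 2.72, 3.03 and 3.38 CPM in macrophages, a log2 fold change of -7.71 (SE 0.15, edgeR adjusted p = 2.29e-09). The replicates of each cell type lay close together. *Fth1*, the ferritin heavy chain, was higher in macrophages at 0.92 (edgeR adjusted p = 0.00171), and *Ncoa4*, the receptor for ferritin turnover, at 1.99 (edgeR adjusted p = 6.3e-07). Of 17 such genes, 6 were higher in macrophages and 3 in monocytes, which became 11 and 2 with library size scaling and 6 and 5 without monocyte samples 3 and 4. Of 22 antioxidant genes, 8 and 6 were higher in macrophages and monocytes, and with library size scaling 8 and 3. Beside both lists, the shares over all genes tested were 35.4% and 30.3%, and 45.2% and 19.1% with library size scaling. *Gpx1*, glutathione peroxidase 1, was higher in monocytes, at -2.73 (edgeR adjusted p = 7.03e-08), and *Gclm*, of glutathione synthesis, in macrophages, at 3.56 (edgeR adjusted p = 3.9e-07) and at 2.06 with the GC offset. *Sod1* was called higher in macrophages at 0.64 (edgeR adjusted p = 0.0014) and, with the GC offset, higher in monocytes at -0.9 (edgeR adjusted p = 0.000244). Without monocyte sample 1 or 2 it fell under the fold threshold (0.58 and 0.57).

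Scavenger and efferocytosis receptors were higher in macrophages at 10 of 19 and in monocytes at 4 (median 1.09). Of the receptor tyrosine kinases that bind dying cells, *Axl* was higher in macrophages at 1347, 1154, 1562 and 1419.5 CPM against 252, 282, 320.4 and 225 CPM in monocytes (log2 fold change 2.34, edgeR adjusted p = 6.81e-07), *Mertk* at 4.38 (edgeR adjusted p = 2.21e-05), 5.52 without monocyte samples 3 and 4, and *Tyro3* at 3.44 (edgeR adjusted p = 0.00177). *Msr1*, a class A scavenger receptor, was higher in monocytes, at 339, 304, 168 and 206 CPM against 16.8, 61.5, 17.3 and 18.4 CPM in macrophages. Macrophage sample 2 stood above the other macrophage samples for *Msr1*. *Cd163*, the hemoglobin scavenger receptor, was low in both and higher in monocytes, at -4.10 (edgeR adjusted p = 0.000258).

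Of 27 chemokines and growth factors, 12 were higher in macrophages and 10 in monocytes, beside 35.4% and 30.3% of all genes tested. *Tnf*, the proinflammatory cytokine, measured 75.7, 66.1, 36.0 and 49.0 CPM in macrophages and 16.1, 14.3, 13.7 and 18.7 CPM in monocytes (log2 fold change 1.85, edgeR adjusted p = 7.01e-05). *Tgfb1* was higher in macrophages by 1.87 (edgeR adjusted p = 0.000192) and the neutrophil attractant *Cxcl2* by 1.71 (edgeR adjusted p = 0.000665). *Spp1*, osteopontin, had 285, 1370.4, 386 and 325 CPM in macrophages, where sample 2 stood far above the others, and 14.2, 86.3, 91.3 and 63.0 CPM in monocytes. Its call (3.22, edgeR adjusted p = 0.00172) was lost without monocyte samples 3 and 4, at 3.55 (edgeR adjusted p = 0.0565). *Il1b* was higher in monocytes, at -3.54 (edgeR adjusted p = 0.000675), *Ccl9* at -3.47 (edgeR adjusted p = 2.96e-05) and *Ccl5* at -6.39 (edgeR adjusted p = 1.39e-05). *Ccl5* is also made by NK cells, whose markers are given below, and its monocyte values of 108, 154, 485 and 426 CPM were higher in samples 3 and 4, without which its log2 fold change was -5.25.

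Of 19 chemotactic receptors, 4 were higher in macrophages and 9 in monocytes, and with library size scaling 8 and 6. Besides *Ccr2* and *Cx3cr1*, *Ccr1* was not called, at 0.11 (edgeR adjusted p = 0.671), and *Cxcr4*, which holds cells in the marrow, was higher in macrophages at 1.05 (edgeR adjusted p = 0.00298). Of 23 integrin and adhesion genes, 7 and 10 were higher in macrophages and monocytes, beside 35.4% and 30.3% of all genes tested. Their median of -0.39 became 0.1 with library size scaling. E-cadherin, *Cdh1*, measured 78.2, 127, 102 and 89.0 CPM in macrophages and 4.98, 9.37, 6.71 and 5.44 CPM in monocytes, and *Itgb7*, the beta 7 integrin, 13.7, 10.4, 21.8 and 10.2 and 418, 826, 996 and 590.2 CPM. Neither pair overlapped, with log2 fold changes of 3.90 (edgeR adjusted p = 7.59e-07) and -5.66 (edgeR adjusted p = 9.09e-07).

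Of 18 matrix protease and inhibitor genes, 8 were higher in macrophages and 5 in monocytes (median 1.05), and with library size scaling 8 and 2. *Plau*, the protease urokinase, was higher in macrophages at 4.48 (edgeR adjusted p = 1.95e-05), and the sheddase *Adam8* was higher in monocytes at -4.23 (edgeR adjusted p = 2.73e-07). Of 22 TGF-beta pathway genes, 11 were higher in macrophages and 4 in monocytes, and with the GC offset 8 and 7. Over all genes tested the shares were 35.4% and 30.3%, and 34.8% and 27.9% with that offset. *Smad3*, a transducer of the pathway, was higher in monocytes at -4.43 (edgeR adjusted p = 2.84e-06). The receptor *Tgfbr2* was higher in macrophages at 1.28 (edgeR adjusted p = 1.7e-05) and the repressor *Ski* at 3.23 (edgeR adjusted p = 2.21e-05), and with the GC offset they stood at 0.45, not called, and 2.10.

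Of 28 cell cycle genes, 24 were called higher in macrophages and 2 in monocytes, with a median of 1.81. Their summed level overlapped between the cell types, at 1235 to 1604 CPM in macrophages and 1213 to 1771 CPM in monocytes. *Mki67* (ENSMUSG00000031004, chromosome 7, 135689784 to 135716361), the proliferation antigen, measured 45.1, 35.6, 41.5 and 58.7 CPM in macrophages and 5.99, 4.66, 5.87 and 13.9 CPM in monocytes, a log2 fold change of 2.57 (SE 0.35, edgeR adjusted p = 9.65e-05). All macrophage samples exceeded all monocyte samples, of which sample 4 was the highest. *Top2a*, the mitotic topoisomerase, had a log2 fold change of 3.09 (edgeR adjusted p = 0.000194) and cyclin A2, *Ccna2*, of 3.71 (edgeR adjusted p = 0.000443), and without monocyte samples 3 and 4 these were 4.22 and 5.77. The 2 genes higher in monocytes were *Ccnd3*, a D-type cyclin, at -2.35 (edgeR adjusted p = 5.34e-06), and *Cdkn1a*, the cell cycle inhibitor p21, at -1.55 (edgeR adjusted p = 8.49e-05). *E2f1* was called higher in macrophages at 1.25 (edgeR adjusted p = 0.000206), and its sign turned with the GC offset, to -0.37.

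Of 34 cytosolic ribosomal protein genes, 23 were not called, 10 were higher in macrophages and 1, *Rps19* (-1.35), in monocytes. *Rplp1* had the largest difference, at 1.87 (edgeR adjusted p = 1.09e-06). Library size scaling raised the macrophage count to 17, while the share over all genes tested rose from 35.4% to 45.2%. Of 19 immediate early and heat shock genes, which respond to tissue digestion and sorting, 10 were higher in monocytes and 4 in macrophages. *Fos* was higher in monocytes at -1.97 (edgeR adjusted p = 7.01e-05). *Dusp1* was not called, with monocyte values of 297, 608, 1296 and 2264 CPM, and its sign turned without samples 3 and 4, from -0.93 to 0.35. Without sample 1 it was called higher in monocytes, at -1.26. *Jund* was higher in macrophages, at 5.17 (edgeR adjusted p = 3.18e-06) and at 3.75 with the GC offset, with 877 exonic bases shared with *Gm11175* on the other strand and a GC-rich transcript.

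**Figure D5:**
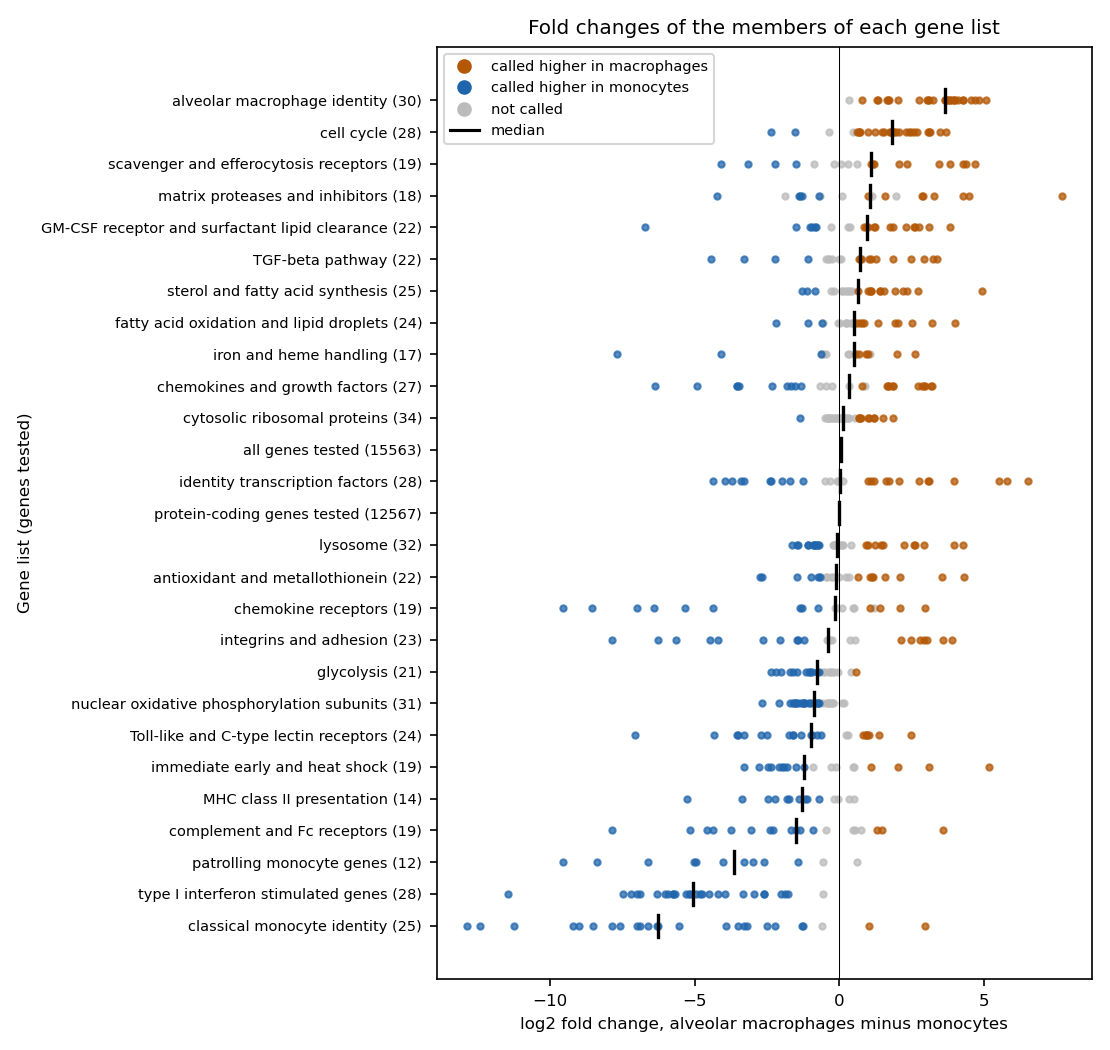
Each point is the log2 fold change of a list member tested (macrophages minus monocytes), colored by its call, and the black bar is the median of the list, with the number of genes tested in brackets. Alveolar macrophage identity (median 3.66) and cell cycle (1.81) lie farthest to the right, and interferon-stimulated (-5.06) and classical monocyte genes (-6.27) farthest to the left, with the medians over all genes and over protein-coding genes tested shown for reference.

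Markers of other cell types moved with cell type as well, and their part in the results above was not tested. Of 14 T and NK cell markers, 9 were higher in monocytes (6 without monocyte samples 3 and 4), their summed level being 16.8 to 56.5 CPM in macrophages and 434.9 to 1755 CPM in monocytes. *Gzma*, a granzyme, measured 192, 289, 754 and 682 CPM in monocytes and 1.86, 1.07, 2.77 and 2.51 CPM in macrophages, and *Ncr1*, an NK cell receptor, 35.4, 40.9, 103 and 86.1 and 0.212, 0.178, 0.353 and 0.102 CPM. Samples 3 and 4 were the highest monocyte samples for both, and without them the log2 fold changes moved from -7.86 to -6.88 and from -8.25 to -7.47. The T cell members were split. *Cd3e*, at 1.05, 3.69, 5.06 and 3.01 CPM in monocytes, was not called, except without macrophage sample 3 (-1.37). *Cd3g* (-0.69) and *Cd4* (1.09) were not called either, whereas *Cd3d* (-1.28) and *Lck* (-3.53) were called higher in monocytes.

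Of 9 erythroid and platelet markers, 8 were higher in monocytes, and 3 without monocyte samples 3 and 4. Their sum was 39.6 to 613 CPM in macrophages and 243 to 4353 CPM in monocytes. *Hbb-bs*, beta globin, overlapped between the cell types and its call (-2.44, edgeR adjusted p = 0.0442) was lost without monocyte samples 3 and 4, at -0.86, and when any sample except macrophage sample 3 or monocyte sample 2 was left out (-2.69 to -1.22). Of 8 neutrophil markers tested, 6 were higher in monocytes, with a sum of 89.5 to 182.5 CPM in macrophages and 612 to 909.5 CPM in monocytes. Without monocyte samples 3 and 4, 4 were higher in monocytes and 1 in macrophages, as with library size scaling. *Csf3r*, the G-CSF receptor, was among them at -4.09 (edgeR adjusted p = 3.2e-06), and *S100a8*, a chain of the granule protein calprotectin, measured 8.48, 8.01, 44.7 and 71.8 CPM in monocytes and 4.4, 5.98, 5.4 and 3.74 CPM in macrophages, with a log2 fold change of -2.77 that became -0.79 without samples 3 and 4. *Ly6g*, *Ngp*, *Camp*, *Elane* and *Mpo* were too low to be tested, and *Elane* was at 0 in every macrophage sample. The dendritic cell and monocyte lectin *Cd209a* was higher in monocytes at -9.54 (edgeR adjusted p = 1.06e-07). The immunoglobulin gene *Igkc* overlapped, with 98.1, 374, 165 and 21.3 CPM in macrophages and 356, 2773, 2473 and 644 CPM in monocytes, and its call was lost without monocyte samples 3 and 4 (-3.26, edgeR adjusted p = 0.0793).

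Of 8 B cell markers, 2 were higher in macrophages and 3 in monocytes, and of 10 dendritic cell markers 1 and 3. With library size scaling these were 4 and 2, and 3 and 3. Over all genes tested the shares were 35.4% and 30.3%, and 45.2% and 19.1% with library size scaling. The B cell sum, which includes *Igkc*, was 110 to 568 CPM in macrophages and 1056 to 3504 CPM in monocytes. The dendritic cell sum was 151 to 213 CPM and 301 to 453 CPM. Of 11 endothelial and mesenchymal markers 3 and 5 were higher in macrophages and monocytes, and their sum was higher in macrophages, at 94.2 to 135 CPM against 37.4 to 62.1 CPM. Of 12 epithelial markers, 3 were higher in macrophages and 4 in monocytes, with a sum of 119 to 185 CPM and 264 to 751 CPM. Without monocyte samples 3 and 4 the counts were 4 and 1, and with library size scaling 3 and 1. *Epcam*, an epithelial adhesion molecule, measured 51.0, 54.4, 67.7 and 57.0 CPM in macrophages and 0.175, 0.568, 3.22 and 1.89 CPM in monocytes, with a log2 fold change of 5.26 (edgeR adjusted p = 4.42e-05), 7.30 without monocyte samples 3 and 4 and 3.83 with the GC offset. *Sftpc*, the gene mutated in these mice and a product of type 2 cells, measured 29.8, 28.7, 30.3 and 28.1 CPM in macrophages and 49.2, 19.1, 104 and 81.0 CPM in monocytes. Its call (-1.12, edgeR adjusted p = 0.0322) was lost with the replicate block, at -0.89 (edgeR adjusted p = 0.0621), and without monocyte samples 3 and 4, at -0.27, and when any 1 sample except monocyte sample 1 or 2 was left out. The club cell gene *Scgb1a1* likewise lost its call without these samples (-0.26). *Hopx*, listed for type 1 cells, was uniformly higher in monocytes, at 244, 184, 228 and 219 CPM against 5.04, 6.16, 5.75 and 5.73 CPM.

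The largest fold changes by the rule for named genes differed in kind between directions. Of the 15 protein-coding genes with the largest fold toward macrophages, 13 share exonic bases with a gene on the other strand. *Ulk4*, for example, measured 236, 256, 195 and 236 CPM in macrophages and 0.437, 0.625, 0.402 and 0.124 CPM in monocytes and shares 759 exonic bases with *Ctnnb1*, and *Wdr38* shares 829 with the ribosomal protein gene *Rpl35*. The others of this kind were *Gm20721*, *Pde6h*, *Actn1*, *Rnd2*, *Vat1*, *Tmem202*, *Tlcd1*, *Snx32*, *Tctn1*, *Hebp1* and *Grtp1*, and *Ptms*, without overlap, is GC rich. The 5 named non-coding genes higher in macrophages, *Plet1os*, *Gm26728*, *Gm10252*, *Gm45552* and *Gm26542*, all overlap a gene on the other strand.

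When genes sharing any exonic base were set aside, a choice made after their values were seen, the macrophage list after *Ptms* held *Ptgfrn*, *Clmn*, *Hr*, *Kcnn3*, *Maff*, *Isoc2a*, *Ralgds* and *Slc6a4*. *Kcnn3*, a calcium-activated potassium channel, measured 184, 165, 201 and 197 CPM in macrophages and 0.218, 1.02, 9.81 and 4.04 CPM in monocytes (log2 fold change 5.61, edgeR adjusted p = 0.000201), and *Slc6a4*, the serotonin transporter, 95.6, 85.4, 106 and 117 and 1.18, 0.795, 4.82 and 4.41 CPM (5.15, edgeR adjusted p = 1.64e-05). Groups without overlap were a condition for entering this list and are not a result. Without monocyte samples 3 and 4 the log2 fold changes of *Kcnn3* and *Slc6a4* were 8.29 and 6.60. For both genes the richest 200-base window was at most 64% GC.

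Of the 15 genes with the largest fold toward monocytes, 11 share no exonic base with a gene on the other strand. *Ms4a4a*, a tetraspan membrane protein, measured 704, 475, 338 and 723 CPM in monocytes and 0.053, 0.296, 0.252 and 0 CPM in macrophages, and *Cd177*, a surface glycoprotein best known from neutrophils, 911, 953, 643 and 293 and 0.106, 0.296, 0.504 and 0.205 CPM. Both were at or near the floor in macrophages. The list also held *Ifitm6*, *F13a1*, *Ifitm3*, *Ly6c2*, *Arhgef10l*, *Cx3cr1*, *Cd209a*, *Arhgef37*, *Ms4a4c*, *Plac8*, *Nxpe4* and *Pla2g7*. The 5 named non-coding genes higher in monocytes were *I830127L07Rik*, *Gm15564*, *Gm15987*, *Gm35853* and *Gm36161*, of which *I830127L07Rik* measured 497 ± 78.1 CPM in monocytes and 0.119 ± 0.0654 CPM in macrophages (SD, n = 4 each).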

How the data were processed

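Raw read counts per gene, not normalized, were deposited by the authors in 1 table for each cell type. Per the labels, libraries were made from oligo(dT)-enriched mRNA with the NEBNext Ultra kit, whose strandedness is not given, and the submitters' processing notes name STAR 2.7.2c and 2.7.3a, featureCounts 1.6.3, DESeq2 1.26.0 and 1.28.1, and GRCm38, without roles. The strand setting and annotation release are not given in the sources used here. Gene names, exons and overlaps were taken from GENCODE M21 (15554 of the 15563 tested identifiers named).

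Counts of the 8 control samples on the 31116 shared identifiers were fitted with edgeR 4.0.16 in R 4.3.3 (filterByExpr, TMM, robust quasi-likelihood test, two-sided, Benjamini-Hochberg over all genes tested). CPM and RPKM of the genes compared used TMM library sizes, and log2 CPM a prior count of 2. The floor and the CPM of identifiers counted only in monocytes used total counts. Fold changes of genes near the floor depend on edgeR's prior count. Alternatives were DESeq2 1.42.0, other scalings, filters, sample sets and call rules, thinned libraries, each sample left out, and, chosen after the data were seen, genes without shared exonic bases, without monocyte samples 3 and 4, and an offset for GC content (20 bins, with and without the replicate block). Named genes were the list members, per direction the 15 protein-coding and 5 other called genes with the largest fold (mean log2 CPM above 3, groups not overlapping), the 10 most abundant per cell type and 5 identifiers counted only in monocytes. The members and lists were chosen with earlier results of these data known. Some named genes are not reported here.

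Macrophage and monocyte samples with the same number in their labels deviated together (Pearson's r of deviations across genes 0.144, 0.212, 0.192 and 0.176, against -0.223 to 0.048 for unequal numbers), so the numbers were taken to pair the samples. The main fit, and the p-values given unless stated otherwise, did not use this pairing. With the replicate number as a block, 477 calls changed, 230 of them lost and 247 gained. On simulated data (15144 genes), 24% of 2-fold and 85.7% of 4-fold changes were recovered, with 6.9% false calls. There, 100 genes differed by 2-fold, 98 by 4-fold and all others were equal between the groups. In the real comparison 65.7% of genes were called, so these rates do not carry over to it.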

Additional observations from a re-analysis of the deposited data

Results flagged for a closer look

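Levels of 136 genes were checked in each group of 4 for a sample far from the other 3 by Dixon's criterion at 95%, 272 checks of which 18 passed. Chance alone gives about 1 in 20 groups. In macrophage sample 2, *Spp1* (1370 CPM against 285 to 386 in the others), *Il1b* (194.8 against 28 to 53.1), *Msr1* (61.46 against 16.8 to 18.4), *Cd163* (0.9473 against 0.101 to 0.106) and *Adgre4* (2.487 against 1.64 to 1.77) were high. In macrophage sample 3, *Cd3e* (4.793 against 0.954 to 1.38) and *Clec4a1* (1.816 against 1.48 to 1.54) were high and *Tlr2* (435.3 against 562 to 583) was low. In macrophage sample 4, *Trim29* (98.51 against 90.8 to 92.1) was high and *Smad3* (0.9216 against 1.66 to 1.8) low. In monocyte sample 4, *Cxcr4* (88.23 against 44.4 to 47.9), *Klf4* (157.3 against 53.8 to 70.1) and *Mki67* (13.92 against 4.66 to 5.99) were high and *Pla2g15* (77.81 against 133 to 137) and *Fcgr1* (285.7 against 319 to 323) low. In monocyte sample 1, *Plau* (1.879 against 0.398 to 0.494) was high and *Fth1* (2169 against 3790 to 4080) low, and in monocyte sample 2, *Ciita* (80.26 against 51 to 55.5) was high.

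Identifiers counted for monocytes alone entered no comparison. The 5 most abundant in control monocytes, as mean CPM, were *Gm26917* (580.6), *Gm42418* (26.57), *Gm5960* (17.13), *Gm13373* (11.62) and *Igkv9-123* (9.994). *Gm26917* ranged from 173.5 CPM in sample 1 to 903.9 CPM in sample 3, and *Igkv9-123* had 968 counts in sample 3 and 1 in samples 1 and 4.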

How the results depend on the processing

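Leaving out 1 sample gave 5380 to 5614 genes higher in macrophages and 4660 to 4891 in monocytes, and above 4-fold 2974 to 3207 and 1555 to 1775. The counts moved by more than 1.5 times with library size scaling (2967 higher in monocytes), with genes sharing no exonic base (2987 and 2818, and 1333 above 4-fold in macrophages, from 9322 genes tested), when genes needed a mean log2 CPM above 1 (1590 and 897 above 4-fold, from 11216 genes tested) and with protein-coding genes alone (1848 above 4-fold in macrophages, from 12567 genes tested). The first component held 87.33% with all genes and 96.17% with unit variance. The replicate block gave 5621 and 4628 calls and changed the call of *Cd36* and *Sftpc* among the genes named with values and no other. No gene called in the main comparison was called in the opposite direction under any alternative except the GC offset, where 42 genes were (37 with the block).

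Over 136 genes, 3651 of 3768 alternative values kept their sign and side of the threshold, 66 lost a call, 34 gained one and 17 turned sign. Signs turned with the GC offset, without and with the block, for *Klf4* (-0.35, -0.32), *Sod1* (-0.9, -0.88), *Fasn* (-0.14, -0.14), *E2f1* (-0.37, -0.26) and *Adgre1* (0.17, 0.18), for *Adgre1* also with library size (0.32), TMM factors from abundant genes (0.19) and genes without overlap (0), for *Dusp1* without monocyte samples 3 and 4 (0.35), for *Ccr1* without macrophage sample 2 (-0.01) or monocyte sample 4 (-0.09), with a range of -0.09 to 0.23 over single samples left out, and for *Csf2ra* without monocyte sample 1 (-0.01, range -0.01 to 0.69). Apart from the offset and the sample sets, whose construction shows what changed, the cause was not tested. *Sftpc*, *Scgb1a1*, *Hbb-bs* and *Fabp4* lost their calls most often.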

Other observations

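Promoter letters other than the interferon element were also counted over the lists, as a description with no test. The C/EBP letters TTGCNNAA were in 8 of 22 alveolar macrophage identity promoters (36.4%) and in 8 of 18 classical monocyte promoters (44.4%), against 10.4% of all promoters of genes tested. None of the 20 promoters of interferon-stimulated genes held them. The E-box CACGTG was in 9 of 24 lysosomal promoters (37.5%), against 11.4% of all, and in none of the alveolar macrophage identity promoters.

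Other classes of genes were counted in the same way. Over all genes tested, 35.4% were called higher in macrophages and 30.3% in monocytes. Of 317 long intergenic non-coding RNAs, 98 (30.9%) were called higher in macrophages and 124 (39.1%) in monocytes, with a median log2 fold change of -0.30. Of 678 processed pseudogenes, whose reads can come from their parent genes, 237 (35%) and 218 (32.2%) were called, close to the shares over all genes, with a median of 0.03. Of 248 processed transcripts, 117 (47.2%) and 69 (27.8%) were called, with a median of 0.68.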
